A study of Mus musculus with 44 samples.

Results

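Complement is a cascade of secreted proteins and cell-surface receptors, and 9 of its genes were followed here: the C1q chain genes C1qa, C1qb and C1qc, the components C3 and C4b, the anaphylatoxin receptor genes C3ar1 and C5ar1, and Itgam and Itgb2, which encode the CD11b and CD18 subunits of complement receptor 3 (CR3). They were taken by gene name, with no threshold on measured values and with earlier results of these data known, from 50714 gene identifiers counted in all 44 libraries of a study of mouse brain. In the classical pathway, C1q binds a target and starts cleavage of C4 and then of C3, C3 fragments coat the target, and CR3 on a phagocyte recognises a C3 fragment. The small fragments C3a and C5a signal through the receptors encoded by C3ar1 and C5ar1. Microglia are known as the main source of C1q in the brain and as carriers of CR3, and this pathway is known for its part in the removal of synapses during development.

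Brains were taken at postnatal day 28 to 29, and the libraries were made from their dorsal cortex and hippocampus. Per the sample labels, all animals carried CX3CR1-CreERT2 (+/-) and RPL10a-GFP flox (+/-), while the series design gives the second allele as fl/fl. Tamoxifen (100 mg/kg) or vehicle was given at postnatal days 15, 17 and 19, and the series design calls the control mice untreated. The Cx3cr1 promoter drives the inducible Cre in microglia, and it is also known to be active in border macrophages and monocytes. Cre lets the cell make a GFP-tagged ribosomal protein, and TRAP, translating ribosome affinity purification, pulls tagged ribosomes down with their RNA. Input was the homogenate and MG_TRAP its immunoprecipitate. SN_input was RNA of a synaptosome preparation, in which nerve endings and what clings to them are collected. PeMP_TRAP was the pull-down from this preparation, named for peripheral microglial processes. Control mice gave 3 libraries of each fraction (A to C) and tamoxifen mice 8 (D to K). Libraries A to F form the first set and G to K the second set. In the sample titles of the second set the PeMP_TRAP fraction is called SN_TRAP. Only the first set holds control libraries. Nothing in the labels says that libraries of 1 group came from separate animals, so p-values measure the spread between these libraries, which may be technical.

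Depth and complexity differed between the groups. Reads assigned to genes ranged from 746616 to 35584637 per library. In PeMP_TRAP of the second set 5372 to 7369 genes had a read, against 11694 to 13096 in PeMP_TRAP of the tamoxifen libraries of the first set, although the second set was deeper. Of 12 microglial marker genes, all 12 were detected in every MG_TRAP library, and their summed level in tamoxifen libraries was 7687 to 25410 CPM in MG_TRAP and 104 to 248 CPM in Input. Of 10 monocyte and neutrophil markers, 9, Ccr2 among them, were at 0 in all 5 PeMP_TRAP libraries of the second set, and the list summed to at most 73.1 CPM in any group. Of 8 border macrophage markers, 3 passed as higher and none as lower in MG_TRAP than in Input of tamoxifen mice (median log2 fold change 3.96), and none passed as higher and 3 as lower in PeMP_TRAP than in SN_input (median -0.70). They summed to 65.6 to 269 CPM in MG_TRAP of tamoxifen mice and 0 to 12.6 CPM in MG_TRAP of control mice, and 5 of them, Lyve1 and Cd163 among these, were at 0 in all PeMP_TRAP libraries of the second set. Their part in the values of the 9 genes was not tested. Counts below are reads per gene, and CPM scales them to a common library total. Levels are log2 CPM after scaling for library composition (TMM), and a count of 0 sits at -2.76 on that scale. Since these are bulk libraries, a smaller share of microglial material and less RNA per cell cannot be told apart. Compared groups were tested across all genes with edgeR's quasi-likelihood test, and a gene passed at a Benjamini-Hochberg adjusted p under 0.05.

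The 3 C1q genes lie side by side on the minus strand of mouse chromosome 4 within 18675 bases (136880129 to 136898803, GRCm38), and their RNA levels moved together in the libraries described below. C3 lies on chromosome 17, and its RNA was close to absent. The 250 bases before the RefSeq start (build GRCm38.p6) are shown for C1qb and C1qc as neighbours that moved together, for Itgam as a receptor gene on another chromosome that moved with them, and for C3 as one that did not. RefSeq windows matched 6 of the 9 members. Each runs 5′ to 3′ on the gene's strand, and capitals mark GAGGAAGT, a motif of the type bound by the myeloid transcription factor PU.1, or where that is absent the shorter ETS family core GGAAG, on either strand.
C1qb, chr4:136886201-136886450, minus strand: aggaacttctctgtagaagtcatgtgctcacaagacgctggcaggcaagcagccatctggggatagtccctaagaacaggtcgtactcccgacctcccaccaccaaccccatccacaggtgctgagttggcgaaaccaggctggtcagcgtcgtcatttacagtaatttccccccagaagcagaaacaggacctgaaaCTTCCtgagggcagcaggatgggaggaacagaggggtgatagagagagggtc
C1qc, chr4:136892915-136893164, minus strand: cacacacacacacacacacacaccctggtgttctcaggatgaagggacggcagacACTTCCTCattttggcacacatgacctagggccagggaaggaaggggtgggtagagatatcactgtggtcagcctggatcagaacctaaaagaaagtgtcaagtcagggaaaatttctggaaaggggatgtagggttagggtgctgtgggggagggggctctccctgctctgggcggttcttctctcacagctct
Itgam, chr7:128062390-128062639, plus strand: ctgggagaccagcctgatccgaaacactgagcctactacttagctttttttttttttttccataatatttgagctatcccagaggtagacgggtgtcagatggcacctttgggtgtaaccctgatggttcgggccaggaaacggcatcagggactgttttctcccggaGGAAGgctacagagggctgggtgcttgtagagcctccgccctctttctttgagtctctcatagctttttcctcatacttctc
C3, chr17:57228137-57228386, minus strand: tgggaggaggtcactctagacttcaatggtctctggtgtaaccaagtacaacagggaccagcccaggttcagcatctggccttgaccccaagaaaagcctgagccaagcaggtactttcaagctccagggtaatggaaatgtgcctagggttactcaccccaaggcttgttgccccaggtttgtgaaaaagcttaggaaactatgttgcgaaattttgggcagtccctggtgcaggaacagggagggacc
GAGGAAGT was found once, 195 bases before the C1qc start, and 2.44% of 32851 mouse windows of the same length hold it. GGAAG, which is also part of the longer motif, was found in 5 of the 6 member windows (C1qb, C1qc, C3ar1, C5ar1 and Itgam) and not in the C3 window. It occurs in 64.1% of all windows, so its presence does not set these genes apart. TATAAA was found in the C3ar1 window alone, and 12.4% of all windows hold it. A match is a run of letters and does not show a bound site.

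C1q RNA took a larger share of reads in the immunoprecipitates than in the fractions they were made from. In tamoxifen mice the 3 chains together took 0.00872% to 0.0190% of assigned reads in Input (median 0.0122%) and 1.00% to 2.18% in MG_TRAP (median 1.28%). They took 0.0309% to 0.424% in SN_input (median 0.134%) and 0.973% to 4.63% in PeMP_TRAP (median 1.52%). Every MG_TRAP library lay above every Input library, and every PeMP_TRAP library above every SN_input library. C1qa had 70 to 626 reads in the 8 Input libraries and 6755 to 67504 in the 8 MG_TRAP libraries. In all 44 libraries each of the 3 chains had a read, with the lowest count, 11 for C1qa, in PeMP_TRAP of control library A.

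**Figure D1:**
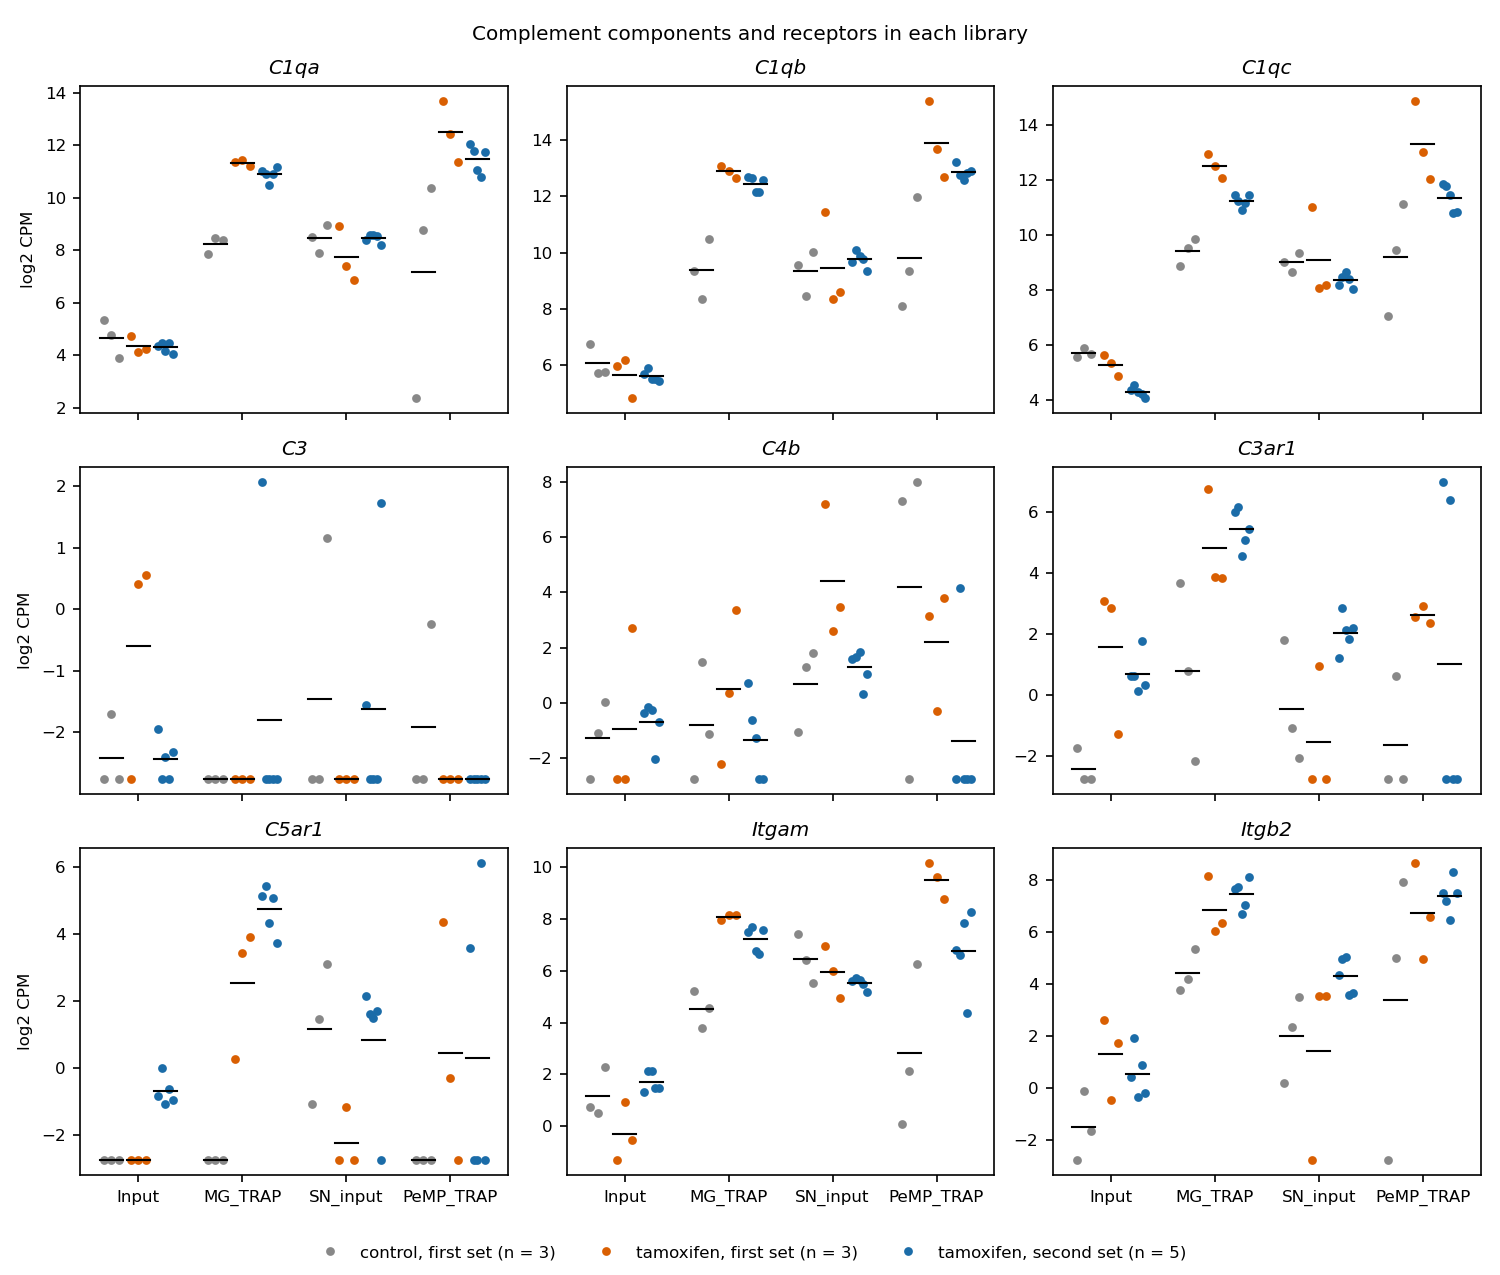
Level of each of the 9 genes (vertical axis, log2 CPM, own scale per panel) in every library of the 4 fractions (horizontal axis), with points for libraries, grey for control, orange for tamoxifen of the first set, blue for tamoxifen of the second set, and lines for means. The C1q chains, Itgam and Itgb2 are higher in MG_TRAP than in Input, C3 sits at the level of a count of 0 in most libraries, and C3ar1 and C5ar1 of the second set fall apart in PeMP_TRAP.

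Between Input and MG_TRAP of tamoxifen mice, 8 of the 9 genes passed the filter on low counts, and 6 of these were higher in MG_TRAP, where 4.67% of all 15710 genes tested passed as higher. None passed as lower. C3 did not pass the filter. The median log2 fold change of the 8 genes was 6.52, against -0.14 over all genes. In the same comparison all 12 microglial markers passed as higher, with a median of 6.37, close to the 6.84 to 7.13 of the C1q genes given next.

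C1qa was at 4.04 to 4.72 in Input (median 4.30) and at 10.47 to 11.44 in MG_TRAP (median 11.10) on the log2 CPM scale. The fitted difference was 6.84 (SE 0.40, 95% interval 6.02 to 7.65, adjusted p = 4.23e-16 by edgeR), a 114-fold enrichment. C1qb was at 4.83 to 6.17 and 12.15 to 13.09, a difference of 7.03 (SE 0.43). C1qc was at 4.07 to 5.63 and 10.91 to 12.93, a difference of 7.13 (SE 0.45). For all 3 chains the lowest MG_TRAP library exceeded the highest Input library by far more than the spread within either fraction. Cx3cr1, Tmem119 and P2ry12, used as a check of the immunoprecipitation, were higher by 6.56, 6.78 and 6.69 in the same fit.

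Itgam was at -1.32 to 2.14 in Input and 6.65 to 8.17 in MG_TRAP, and the difference was 6.23 (SE 0.71, adjusted p = 1.73e-08 by edgeR). Itgb2 was at -0.44 to 2.62 and 6.03 to 8.16, a difference of 6.36 (SE 0.86, adjusted p = 7.97e-07 by edgeR). Neither subunit overlapped between the fractions, and the intervals of the 2 differences, 4.80 to 7.66 and 4.62 to 8.10, largely coincided. Itgam shares 3450 of its 5024 exon bases with the read-through gene Gm49368 on the same strand, which had at most 2 reads in any library, so reads in the shared bases may have been left out as ambiguous and the Itgam level may be understated.

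The anaphylatoxin receptor genes were lower and more uneven. C5ar1 was at -2.76 to 0.01 in Input, with a count of 0 in 3 of 8 libraries, and at 0.27 to 5.44 in MG_TRAP. Its difference was 6.68 (SE 1.63, adjusted p = 0.00584 by edgeR). It passed in neither set alone (adjusted p = 0.105 in the first set and 0.0884 in the second, by edgeR). C3ar1 was at -1.28 to 3.08 in Input and 3.82 to 6.73 in MG_TRAP. The groups did not overlap, but the difference of 3.91 (SE 1.35) had an adjusted p of 0.0767 by edgeR and did not pass, while it passed by DESeq2 (adjusted p = 0.0195) and in an edgeR fit of these 2 groups alone (4.77e-05).

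C3 RNA was near the limit of detection, and C4b RNA, the other component measured, was low in most libraries and high in a few. C3 had a count of 0 in 33 of 44 libraries and more than 3 reads in 5. Its highest count was 63, in MG_TRAP of library G. A level of C3 could therefore not be told from 0 in most libraries, where 3 reads correspond to 0.0847 to 4.05 CPM depending on depth. C4b had a count of 0 in 11 libraries and at most 847 reads. In MG_TRAP its 8 tamoxifen libraries held 1, 5, 29, 23, 16, 5, 0 and 0 reads (D to K), and in Input 0, 0, 24, 17, 20, 17, 2 and 9. These overlapped, and the difference of 0.19 (95% interval -2.69 to 3.06) is too wide to exclude a several-fold change either way. C4b has a near-identical neighbour, C4a, and reads that fit both could have been left out by the counting.

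**Figure D2:**
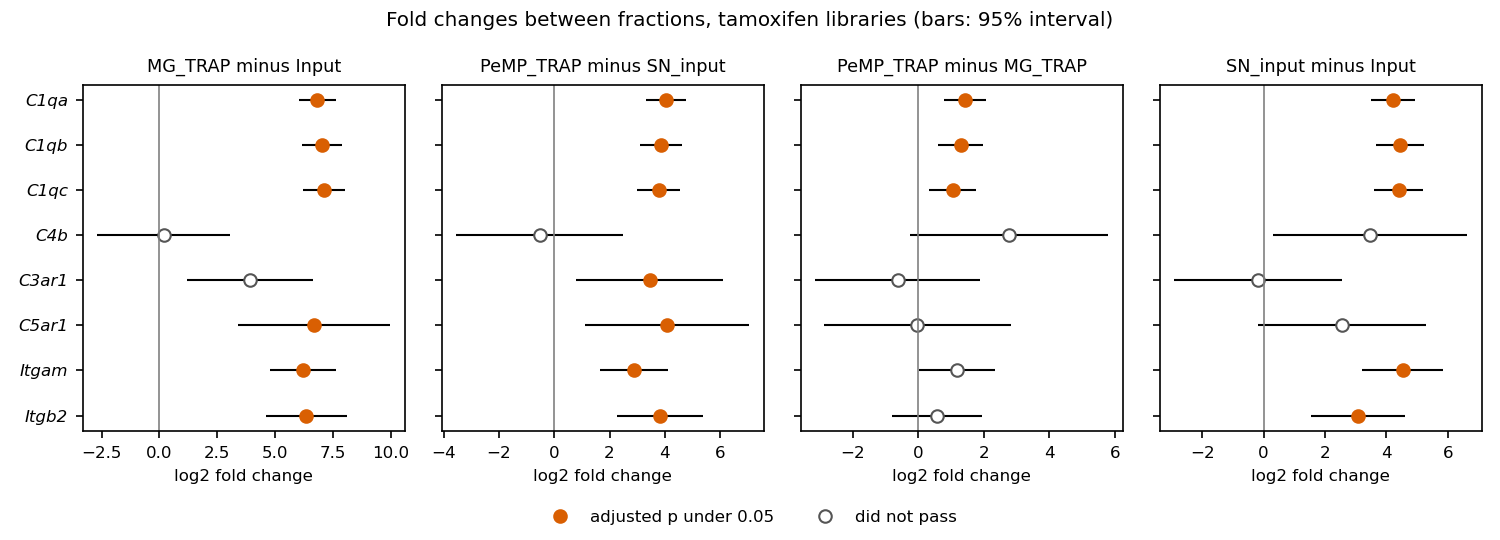
Log2 fold change (horizontal axis) of 8 complement genes (vertical axis) between fractions of tamoxifen mice, with bars for the 95% interval, filled points where the adjusted p was under 0.05 and open points where it was not; C3 was not tested. The C1q chains are far from 0 in the comparisons with Input and SN_input and closer to 0 between the 2 immunoprecipitates.

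In the synaptosome fraction, 7 of the 8 tested genes passed as higher in PeMP_TRAP than in SN_input of tamoxifen mice, where 6.15% of all genes did. None passed as lower, whereas 4108 of 15710 genes did, and the median over all genes was -0.75 against 3.802 for the 8. All 12 microglial markers passed as higher, with a median of 3.33, while all 8 oligodendrocyte markers (median -2.88), 6 of 8 neuronal markers (-1.91) and 3 of 8 astrocyte markers (-2.44) passed as lower; their part in the result was not tested. The members that passed were the C1q chains, both CR3 subunits and both anaphylatoxin receptor genes.

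C1qa was at 6.86 to 8.93 in SN_input and 10.80 to 13.68 in PeMP_TRAP, with a difference of 4.04 (SE 0.36, 95% interval 3.31 to 4.76, adjusted p = 6.75e-10 by edgeR). C1qb rose by 3.86 (SE 0.38) and C1qc by 3.78 (SE 0.39). The levels of C1qa and C1qb did not overlap between the fractions. Those of C1qc did, through library D, whose SN_input stood at 11.01 while the other 7 lay between 8.04 and 8.64. The enrichment of C1qa was 5.14 in the first set alone and 3.23 in the second alone. That difference between sets, fitted in its own model, was -1.80 (SE 0.59, adjusted p = 0.0333 by edgeR), but 14.9% of all genes passed as lower there and the median over all genes was -1.61. These 2676 genes became 1472 without library F and 1642 without E. Without library E, H, I or J, C1qa no longer passed (adjusted p up to 0.119), and with RLE factors, unscaled totals, no filter or DESeq2 it did not pass either. Without library D, C1qb (-1.54, adjusted p = 0.00608 by edgeR) and C1qc (-1.35, adjusted p = 0.0115) also passed.

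Itgam was at 4.96 to 6.97 in SN_input and 4.37 to 10.17 in PeMP_TRAP, a difference of 2.89 (SE 0.61, adjusted p = 0.000545 by edgeR). Itgb2 was at -2.76 to 5.05 and 4.96 to 8.64, a difference of 3.83 (SE 0.76, adjusted p = 0.000333 by edgeR). The Itgam groups overlapped: PeMP_TRAP of libraries G, H and J lay at 6.80, 6.61 and 4.37, under SN_input of library D at 6.97. The PeMP_TRAP of library J held 567 Itgam reads and 8606 Itgb2 reads. The Itgb2 groups touched through PeMP_TRAP of library E at 4.96, and Itgb2 did not pass in the first set alone (4.97, adjusted p = 0.0563 by edgeR).

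C3ar1 and C5ar1 were present in some PeMP_TRAP libraries and absent in others. In the second set C3ar1 had 3951, 0, 2525, 0 and 0 reads (G to K), and C5ar1 had 374, 0, 0, 1915 and 0. C1qa in the same libraries had 49066 to 134029 reads. In the tamoxifen libraries of the first set C3ar1 had 39, 11 and 4 reads (D to F) and C5ar1 138, 1 and 0. C3ar1 passed as higher than in SN_input by 3.46 (SE 1.31, adjusted p = 0.0396 by edgeR), and C5ar1 by 4.09 (SE 1.47, adjusted p = 0.0294 by edgeR). The median library went the other way for C5ar1, at 0.131 CPM per kb of exon in PeMP_TRAP and 0.573 in SN_input. For C3ar1 the medians were 1.24 and 0.645. Neither held under every alternative: C3ar1 no longer passed without library D, E, F, G or I (adjusted p = 0.0536 to 0.176), nor C5ar1 without D, E or J (0.0542 to 0.161), and neither passed within a set. Their levels overlapped between PeMP_TRAP and SN_input.

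C3 had no read in any of the 8 PeMP_TRAP libraries of tamoxifen mice, and C4b had 59, 1, 11, 0, 378, 0, 0 and 0 reads there (D to K). C4b in SN_input had 847 reads in library D and 10 to 43 in the other 7. No difference passed for C4b between PeMP_TRAP and SN_input (-0.52, 95% interval -3.54 to 2.50).

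The synaptosome fraction itself, before any immunoprecipitation, held more C1q RNA than the homogenate. Between Input and SN_input of tamoxifen mice 5 of the 8 tested genes were higher, where 2.08% of all genes passed as higher, and none was lower. That share is 327 genes, which became 182, 195, 208 and 210 without library G, H, I and E. It became 134 genes with RLE factors and 93 with unscaled totals. Genes passing as lower numbered 73 in the main fit, 109 with RLE factors and 230 with unscaled totals. C1qa rose by 4.22 (SE 0.36, adjusted p = 7.78e-11 by edgeR), C1qb by 4.45 (SE 0.39), C1qc by 4.40 (SE 0.39) and Itgam by 4.53 (SE 0.65). The C1q levels and those of Itgam did not overlap between the fractions. Itgb2 rose by 3.09 (SE 0.76, adjusted p = 0.0147 by edgeR), but without library G, H, I or K it did not pass (adjusted p = 0.0555 to 0.0863), and with RLE factors it had an adjusted p of 0.135. In the first set alone Itgam passed and the chains did not (3.90 to 4.73, adjusted p = 0.0712 to 0.111 by edgeR). C5ar1 (2.56, SE 1.36), C4b (3.47, SE 1.57) and C3ar1 (-0.17, SE 1.35) did not pass, although C4b and C5ar1 did in an edgeR fit of these 2 groups alone (adjusted p = 0.0227 and 0.0417). Of the microglial markers 10 of 12 passed as higher with a median of 3.22. So did 3 of 8 astrocyte (median 2.01), 3 of 8 oligodendrocyte (1.91) and 1 of 8 border macrophage markers (2.36). None of the 8 neuronal markers passed (median -0.51). Other cell types' RNA thus also differed between these fractions, and its part in the result was not tested.

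The enrichment by immunoprecipitation was smaller in the synaptosome fraction than in the homogenate for C1q and Itgam. The difference between the 2 enrichments was -2.80 (SE 0.45) for C1qa, -3.16 (SE 0.48) for C1qb, -3.36 (SE 0.50) for C1qc and -3.34 (SE 0.81) for Itgam. These 4 of 8 genes passed as lower (adjusted p = 0.000101 to 0.0064 by edgeR), where 10.9% of all genes did (1709, and 981 to 2474 with 1 library letter left out). Itgb2 stood at -2.53 (SE 1.00, adjusted p = 0.0967 by edgeR), and without library D at -3.20 (adjusted p = 0.0058). Of the microglial markers 10 of 12 passed as lower, with a median of -3.11, and the median over all genes was -0.79. Lower too were 3 of 8 border macrophage (median -4.62), 2 of 8 oligodendrocyte (-1.41) and 1 of 8 neuronal markers (-0.42). None of the 8 astrocyte markers passed (median -1.01), and the part of these cells was not tested. In the first set alone none of the 4 passed (adjusted p = 0.571 to 0.801 by edgeR).

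The direct comparison of PeMP_TRAP with MG_TRAP depended on how libraries were scaled. With TMM factors, C1qa was higher in PeMP_TRAP by 1.42 (SE 0.32, adjusted p = 0.00145 by edgeR), C1qb by 1.29 (SE 0.34, adjusted p = 0.00502) and C1qc by 1.05 (SE 0.35, adjusted p = 0.0236). These were 3 of 8 tested genes, where 3.17% of all genes passed as higher and the median over all genes was -0.57. With RLE factors the 3 values were 0.81, 0.67 and 0.40, and C1qa alone passed. With unscaled totals they were 0.56, 0.42 and 0.13, and with DESeq2 0.81, 0.67 and 0.40, and none passed. The median over all genes moved as well, to -1.10 with RLE factors, -1.30 with unscaled totals and -1.08 with DESeq2. Of all genes 287, 195 and 442 passed as higher in that order. Every PeMP_TRAP range overlapped the MG_TRAP range. Library D stood apart in PeMP_TRAP, with C1qb at 15.39 against 12.57 to 13.66 in the other 7. Without it the C1qc difference was 0.53, and without any 1 of libraries D, E, H and I it did not pass (adjusted p = 0.0533 to 0.0624 by edgeR). In the first set alone none of the 3 passed, and 0 of all 12968 genes did by edgeR, with 1377 at an unadjusted p under 0.05. Itgam differed by 1.19 (SE 0.58, adjusted p = 0.136 by edgeR) and Itgb2 by 0.56 (SE 0.68), neither passing. Of the 12 microglial markers none passed as higher and 2 as lower in this comparison, with P2ry12 at -2.16 (SE 0.46). Astrocyte markers had a median difference of 1.05, with 1 of 8 passing as higher, and oligodendrocyte markers one of 0.58, with 1 of 8 passing as lower. As lower also passed 3 of 8 neuronal and 3 of 8 border macrophage markers, and the part of these cells in the result was not tested.

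The 3 chains of C1q, which assemble in equal numbers into the protein, differed in RNA level per length of exon. In MG_TRAP of tamoxifen mice C1qb was at 5868 ± 1291 CPM per kb (SD, n = 8), C1qa at 2088 ± 419 and C1qc at 1941 ± 1065. Within the sum of the 3, C1qb took 60.0% ± 4.16 in MG_TRAP, 60.0% ± 5.49 in PeMP_TRAP, 59.4% ± 4.34 in SN_input and 58.1% ± 6.53 in Input (SD, n = 8 each). That share moved less between fractions than between libraries of 1 fraction. C1qb lay above C1qa and C1qc in each of the 8 MG_TRAP libraries, whereas C1qa and C1qc did not differ beyond their spread. The order of these latter depended on the length used: C1qc has 1931 exon bases in all and 1203 in its longest transcript, and with the latter its median in MG_TRAP was 2334 CPM per kb against 2109 for C1qa. The other genes followed at much lower levels. Their medians in MG_TRAP were 54.7 CPM per kb for Itgb2, 39.5 for Itgam, 8.88 for C3ar1, 6.85 for C5ar1 and 0.0680 for C4b, and 0 for C3. The Itgam value divides by all 5024 exon bases, of which 1574 are not shared with Gm49368. If reads in the shared bases were not counted, the level of Itgam per kb is understated, so the order of Itgb2 and Itgam was not settled. C3ar1 and C5ar1 did not differ beyond their spread (10.7 ± 7.47 against 8.37 ± 5.62).

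**Figure D3:**
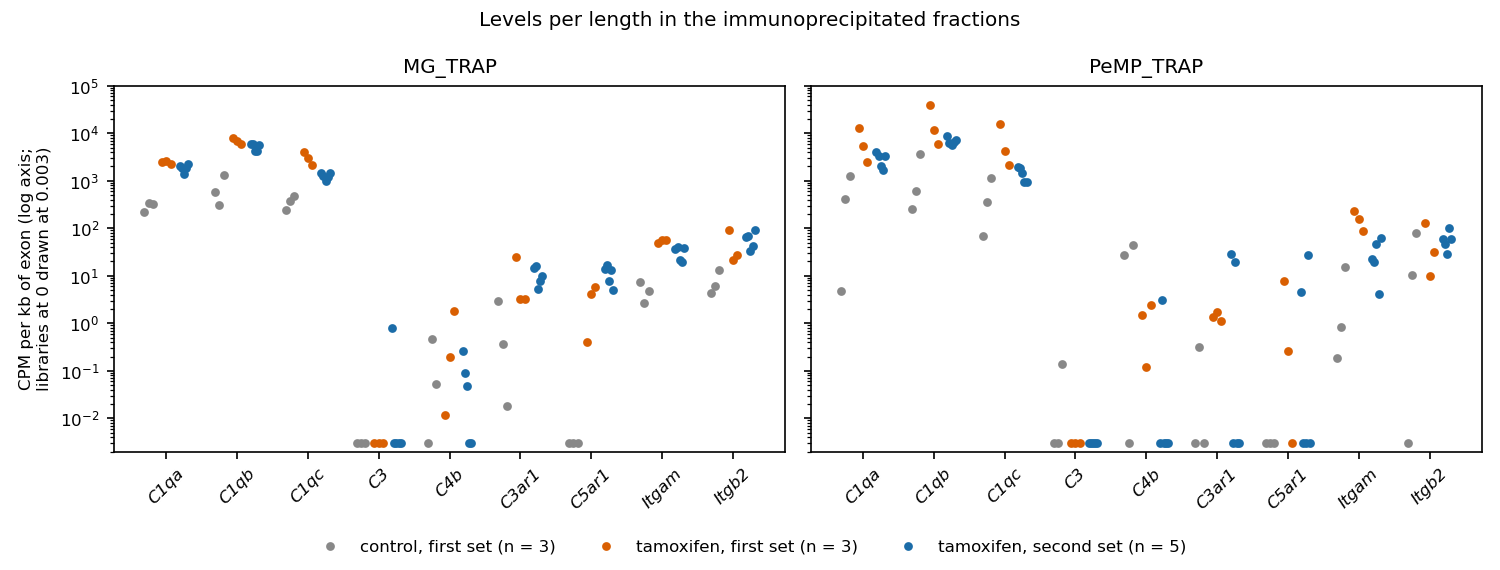
Level per length of exon (vertical axis, CPM per kb, log axis, libraries at 0 drawn near the bottom) of the 9 genes (horizontal axis) in MG_TRAP and PeMP_TRAP, 1 point per library in the colours of its group. C1qb is highest in tamoxifen libraries, CR3 subunits lie below the C1q chains, and the anaphylatoxin receptors, C4b and C3 reach 0 in some libraries.

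The balance of the chains differed between the 2 sets of libraries. In Input, MG_TRAP, SN_input and PeMP_TRAP alike, every library of the first set held more C1qc reads per C1qa read than any library of the second set of the same fraction. In MG_TRAP the tamoxifen libraries of the first set had 2.99, 2.06 and 1.80 C1qc reads per C1qa read (D to F), and those of the second set 1.20 to 1.36. In Input the tamoxifen libraries of the first set had 1.88, 2.34 and 1.56, and those of the second set 0.833 to 1.08. The control library A in PeMP_TRAP had 26.2, from 288 C1qc and 11 C1qa reads. The sets were counted against gene lists of 54146 and 55359 identifiers, and annotation, preparation and animals cannot be told apart here. The ratio was looked at after the values had been seen.

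**Figure D4:**
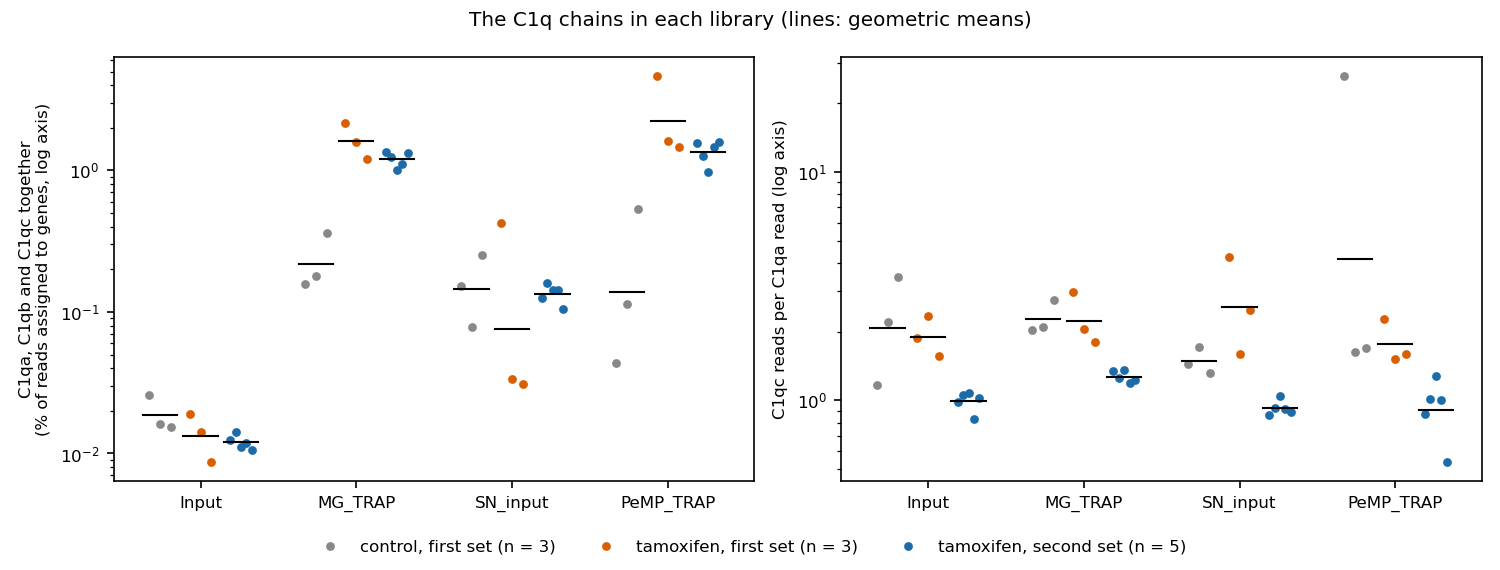
Left, C1qa, C1qb and C1qc reads together as a percentage of assigned reads (log axis) and right, C1qc reads per C1qa read (log axis), in every library of the 4 fractions, with lines for geometric means. The share is highest in the immunoprecipitates of tamoxifen mice, and the ratio is lower in the second set (blue) than in the first set in all 4 fractions.

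Control mice show how much C1q RNA an immunoprecipitate held when tamoxifen had not been given, and these comparisons rest on 3 against 3 libraries of the first set. Groups this small can part without overlap by chance. The share of all genes that did so is not given, so a lack of overlap in them stands only as a description. In MG_TRAP the 3 chains took 0.157%, 0.179% and 0.364% of assigned reads in control mice (A to C) and 2.18%, 1.58% and 1.20% in tamoxifen mice (D to F), without overlap. C1qa was at 7.85, 8.46 and 8.37 in controls and 11.35, 11.44 and 11.21 with tamoxifen, a difference of 3.12 (SE 0.97). C1qb differed by 3.30 (SE 0.92), C1qc by 3.09 (SE 0.88), Itgam by 3.52 (SE 1.15) and Itgb2 by 2.59 (SE 1.59). None of the 8 tested genes passed by edgeR (adjusted p of the chains 0.159 to 0.210), where 0% of all 14771 genes passed. At an unadjusted p under 0.05 by edgeR 5 of the 8 lay, as did 2351 of all genes, and DESeq2 called 4 of the 8 and 875 of all genes. The median difference was 2.84 over the 12 microglial markers and 6.14 over the 6 border macrophage markers tested. It was -2.25 over the 8 neuronal, -2.46 over the 8 oligodendrocyte and -3.85 over the 8 astrocyte markers. None of these markers passed, and their part in the C1q difference was not tested.

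In controls, C1q RNA lay higher in the immunoprecipitate than in Input in all 3 libraries of each, without passing the test, and the 12 microglial markers had a median difference of 3.58, none passing either. C1qa differed by 3.48 (SE 0.99), C1qb by 3.46 (SE 0.93), C1qc by 3.74 (SE 0.91) and Itgam by 3.26 (SE 1.15), with no overlap of the 3 libraries against 3. None of the 8 passed by edgeR (adjusted p of the chains 0.200 to 0.371), where 0.0135% of all genes did, and 6 had an unadjusted p under 0.05 (1101 of all 14771 genes) while DESeq2 called 4 (223 of all genes). The change of this enrichment with tamoxifen was 3.52 (SE 1.31) for C1qa, 3.69 (SE 1.24) for C1qb, 3.51 (SE 1.19) for C1qc and 5.10 (SE 1.60) for Itgam, with adjusted p of 0.357 to 0.392 by edgeR and 0% of all genes passing. At an unadjusted p under 0.05 by edgeR lay 4 members and 1357 of all 14771 genes, and DESeq2 called 1 member and 203 genes.

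In PeMP_TRAP tamoxifen libraries exceeded control libraries. Together the chains took 0.0435%, 0.114% and 0.532% of assigned reads in controls and 4.63%, 1.60% and 1.47% with tamoxifen. C1qa was at 2.38, 8.76 and 10.36 in controls and 13.68, 12.42 and 11.36 with tamoxifen, a difference of 3.67 (SE 1.00, adjusted p = 0.0194 by edgeR). C1qb rose by 3.72 (SE 0.94), C1qc by 3.86 (SE 0.91) and Itgam by 4.92 (SE 1.23, adjusted p = 0.0124 by edgeR). These 4 of 8 genes passed as higher, where 5.56% of all genes did, and 6 of 12 microglial markers did. Without library F 271 of 15984 genes passed as higher. Among markers of other cells 3 of 8 oligodendrocyte, 2 of 8 neuronal, 1 of 8 astrocyte and 2 of 7 endothelial markers passed as lower, and their part in the result was not tested. Control library C came close to the tamoxifen libraries, at 10.36 for C1qa, while library A held 11 C1qa reads. Without library D, C1qa and C1qb no longer passed (2.98 and 2.76, adjusted p = 0.0710 and 0.0565 by edgeR), and in a fit of these 2 groups alone none of the 4 did (adjusted p = 0.138 to 0.162), where 23 of 6518 genes did. Without control library C the differences were larger, at 5.48 for C1qa, 6.02 for C1qb, 5.60 for C1qc and 8.92 for Itgam, and all 4 passed. Itgb2, at 1.01 (SE 1.51), did not pass.

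In control mice PeMP_TRAP did not stand above SN_input for C1q. C1qa differed by 0.70 (SE 0.90), C1qb by 1.22 (SE 0.86) and C1qc by 0.98 (SE 0.82), with overlapping libraries, and without library C the 3 values were -0.49, -0.34 and -0.22. None of the 8 genes passed by edgeR, where 0% of all genes did; 3 had an unadjusted p under 0.05, as did 2577 of all 14771 genes, and DESeq2 called 2 of the 8 and 1275 genes. The change of this enrichment with tamoxifen was 4.14 (SE 1.32) for C1qa, 2.99 (SE 1.22) for C1qb, 3.10 (SE 1.18) for C1qc and 5.35 (SE 1.57) for Itgam. None passed by edgeR (adjusted p = 0.0645 to 0.162), where 1.24% of all genes did, while 6 members and 2928 of all 14771 genes had an unadjusted p under 0.05 and DESeq2 called 4 members and 1826 genes. Without library C, Itgam was at 9.66 and passed (adjusted p = 0.0428 by edgeR). The count over all genes, 183, fell to 0 by edgeR without library A, D or F (where 2205 to 2708 genes had an unadjusted p under 0.05), to 26 without C and to 45 without E. C4b stood apart among these libraries, with 341, 0 and 724 reads in PeMP_TRAP of controls A, B and C. In the same 3 libraries the 8 endothelial markers summed to 436 to 2836 CPM, against 26.2 to 882 CPM in the tamoxifen libraries of the first set; their part in the C4b counts was not tested.

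Without immunoprecipitation, tamoxifen was not followed by a detectable change. In Input C1qa stood at 5.33, 4.76 and 3.89 in controls and 4.72, 4.11 and 4.22 with tamoxifen, and the differences of the 3 chains were -0.39 to -0.42 (SE 0.82 to 0.90). In SN_input they were -0.47 to 0.76 (SE 0.82 to 0.90). None of the 8 genes passed by edgeR in either fraction, with 0% of all genes passing in each. In each fraction 1 member had an unadjusted p under 0.05 (452 of all genes in Input and 495 in SN_input), and DESeq2 called 0 (48 and 64 of all genes). Control SN_input was above control Input by 3.73 (SE 1.00) for C1qa, 3.32 (SE 0.93) for C1qb, 3.31 (SE 0.89) for C1qc and 5.30 (SE 1.26) for Itgam, with no overlap. By edgeR 0% of all genes passed there and none of the 8, while 6 had an unadjusted p under 0.05 (1010 of all 14771 genes) and DESeq2 called 4 (134 of all genes).

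Differences between the sets in the other enrichments were not found for these genes. Between sets 0% of all genes changed their MG_TRAP enrichment or their difference between SN_input and Input by edgeR, and 15.3% changed their difference between PeMP_TRAP and MG_TRAP (2743, and 1433 without library E and 1601 without F). In each of these 3 comparisons 0 of the 9 members passed. At an unadjusted p under 0.05 the counts were 2, 2 and 0 members (1070, 619 and 4357 of all 17961 genes), and DESeq2 called 1, 1 and 0 (316, 240 and 3710 of all genes). For C1qa the values were -0.58 (SE 0.59), 0.44 (SE 0.59) and -0.79 (SE 0.59) in the order given.

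Of 47 other complement genes, 25 passed the filter on low counts in the tamoxifen libraries, and few of them behaved like C1q. Of these 25, 2 were higher and 2 lower in MG_TRAP than in Input, with a median of -0.40, where 733 of all 15710 genes were higher and 338 lower. C5ar2, a second C5a receptor, rose by 5.71 (SE 1.66, adjusted p = 0.0249 by edgeR). Its level was 3.82 ± 2.12 in the homogenate pull-down and -1.06 ± 1.18 before it (log2 CPM, SD, n = 8 each). Both genes called lower, Cd59b and Srpx2, had at most 3 reads in every MG_TRAP library. In PeMP_TRAP against SN_input 2 were higher and 10 lower, with a median of -2.92, where 966 of all 15710 genes were higher and 4108 lower. The call of Itgax rested on 2 PeMP_TRAP libraries with more than 3 reads. Serping1, encoding the inhibitor of the C1 proteases, had no read in the 8 PeMP_TRAP libraries of tamoxifen mice and a median of 70.0 in SN_input, and Cd55, a membrane regulator, had none and a median of 4.0. Against MG_TRAP, 2 were higher and 6 lower in PeMP_TRAP (498 and 3454 of all 15710 genes), with C1qbp, a C1q-binding protein, higher by 1.80 (SE 0.60). Its mean log2 CPM was 6.56 in PeMP_TRAP and 5.93 in MG_TRAP, and this comparison depended on scaling for the C1q chains. The other gene called higher, Cd59b, had at most 3 reads in 7 of 8 PeMP_TRAP and in all 8 MG_TRAP libraries. Of the 6 genes of initiating proteases 2 were tested and of the 7 terminal pathway genes 1, and none of these 3 passed as higher in any of the 4 comparisons.

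Across all 44 libraries and 13812 genes, the genes whose log2 CPM most resembled the mean of the C1q chains were Ctss (Pearson r = 0.977), Cst3 (0.970), Selplg (0.968), Fcgr3 (0.966) and Trem2 (0.966). Of these, Ctss encodes cathepsin S, Cst3 cystatin C, Fcgr3 an IgG receptor and Trem2 a microglial lipid receptor. Tmem119 ranked at 0.937 and Cx3cr1 at 0.875. The 44 libraries fall into 4 fractions with large differences between them, so these values describe mainly the spread over fractions. For Itgam and C1qa r was 0.909, for Itgb2 and C1qa 0.857, for C5ar1 and C1qa 0.506 and for C3ar1 and C1qa 0.429. For C4b the highest r was with Ift20 at 0.594, and for C3, with reads in 11 of 44 libraries, the highest was Ifitm1 at 0.530. Values of this size in genes with so few reads are not a finding.

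The authors' deposited table covers the first set and lists all 9 genes. In it 7 of the 9 had an FDR under 0.05 between MG_TRAP of tamoxifen mice and Input, with log2 fold changes of 6.87 for C1qa, 7.05 for C1qb and 7.16 for C1qc, and 6.31 for C3ar1. Between PeMP_TRAP and SN_Input the authors' deposited table has 5 of the 9 under 0.05, the C1q chains at 4.60 to 4.73 among them. Between SN_Input and Input it has 4 of the 9, with C1qa at 7.29, C1qb at 7.70, C1qc at 7.73 and Itgam at 11.68. These 4 values lie above the highest fitted here for a member between these fractions of tamoxifen mice, 4.53. The authors' column names give no treatment for SN_Input and Input, and the cause of the gap was not tested. C3 and C4b had an FDR above 0.05 in each comparison of the authors' deposited table. The share of all its genes under 0.05 is not given here, so these counts of members have no background beside them.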

How the data were processed

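Full-length complementary DNA was made with SMART-Seq v4 and libraries with NEBNext Ultra II, per the labels' protocols. The authors deposited whole-number read counts per Ensembl gene for each library. FastQC 0.11.7, Trimmomatic 0.38, Bowtie2 2.3.5, STAR 2.7.0d, HTSeq 0.9.1 and edgeR are named, with no role or order, per the submitters' processing notes. Genome build, annotation and strand setting are not given in the sources used here. The authors' deposited table of the first set also holds log2 fold changes, p-values with FDR, and a likelihood ratio score, of which the score was not used.

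Rows that name no gene (27.0% to 93.4% of reads) were left out, as were genes counted in 1 set only (0.0232% to 0.795%). Genes passed filterByExpr (minimum count 10), libraries were scaled by TMM, and edgeR 4.0.16 (R 4.3.3) fitted quasi-likelihood models with Benjamini-Hochberg adjustment over all genes. Comparisons between fractions used the 32 tamoxifen libraries with the set as a covariate, those with controls the 24 libraries of the first set, and those between sets an interaction of fraction and set. For levels on the log2 CPM scale, 2 reads were added as prior count. A library's floor of 3 counts covers counting error only. Coordinates and exon lengths come from GENCODE M21 (GRCm38), and the authors' annotation may differ. The script was tested on simulated data. Alternatives were RLE factors, unscaled totals, no filter, DESeq2 1.42.0, the replicate letter as a block, each set alone, the compared groups alone and each letter left out.

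The members and lists were chosen with earlier results of these data known. Named were the 9 members, at most 2 higher and 2 lower other complement genes per comparison, the genes most like C1q (5), C3 (3) and C4b (3), and 3 genes that check the immunoprecipitation. The values of 1 other complement gene are not reported here.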

Additional observations from a re-analysis of the deposited data

Results flagged for a closer look

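Of 36 groups of 8 tamoxifen libraries, 7 held a library whose gap to its neighbour passed Dixon's 95% limit. Chance flags about 1 in 20 groups of independent, untied values; several groups of C3, C4b and C5ar1 hold libraries tied at 0, and the genes share libraries, so that rate is no measure here. Library D gave 5 of these: C1qb in PeMP_TRAP at 15.39 log2 CPM and C1qc in SN_input at 11.01 lay above the others, as did C4b in SN_input at 7.20, while C5ar1 in MG_TRAP at 0.27 and Itgb2 in SN_input at -2.76, a count of 0, lay below. C3 in MG_TRAP of library G stood at 2.07, from 63 reads where the other 7 libraries had none, and C3 in SN_input of library K at 1.73, from 23 reads. SN_input of library D had 10023 genes detected, against 12543 to 16876 in the other 7; its part in these values was not tested.

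Enrichment by immunoprecipitation differed between the synaptosome fraction and the homogenate for C1qa (-2.80), C1qb (-3.16), C1qc (-3.36) and Itgam (-3.34) on the log2 scale. The enrichment of C1qa in PeMP_TRAP over SN_input differed between the sets by -1.80, close to the median of -1.61 over all genes, and the call was lost with RLE factors, unscaled totals, no filter or DESeq2 and without library E, H, I or J.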

How the results depend on the processing

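Of the recomputed fold changes of members, 983 kept their direction and side of the threshold, 65 lost and 42 gained a call, and 38 changed sign, none of which passed with either setting. The 6 members higher in MG_TRAP than in Input numbered 6 with each letter left out in turn, where 590 to 757 of all genes passed as higher. In PeMP_TRAP against SN_input the 7 became 4 in the first set alone and 5 in the second. Of all genes 311 of 12968 and 665 of 15617 passed as higher there. The 7 became 5 in a fit of these groups alone (504 of 12596 genes higher) and 6 with RLE factors (753 of 15710). Over letters left out 5 to 7 passed, where 741 to 917 of all genes were higher. In PeMP_TRAP against MG_TRAP the 3 became 1 with RLE factors, where 287 of all 15710 genes passed as higher. The 3 became 0 with unscaled totals (195 genes higher), DESeq2 (442) and the first set alone (0 of 12968). In the first set alone 1 passed in SN_input against Input and 0 in the difference of enrichments, where 6 and 0 of all 12968 genes did. Over letters left out, 2 to 4 passed between tamoxifen and control PeMP_TRAP, where 271 to 856 of all genes passed as higher. In a fit of these groups alone 0 passed, where 17 of 6518 genes passed as higher. In the comparisons that follow, up to those between sets, 0 passed with the main settings. In MG_TRAP, tamoxifen against control, 2 passed without a filter (52 of all 27860 genes) and 4 by DESeq2. In controls, MG_TRAP against Input gave 2 without a filter (17 genes) and 4 by DESeq2, PeMP_TRAP against SN_input 2 by DESeq2, and SN_input against Input 3 without a filter (13 genes) and 4 by DESeq2. The change of MG_TRAP enrichment with tamoxifen gave 1 by DESeq2, and that of PeMP_TRAP 1 with unscaled totals (307 genes), 4 without a filter (558 genes), 4 by DESeq2 and 0 to 1 over letters left out. Between sets, DESeq2 gave 1 for MG_TRAP against Input and 1 for SN_input against Input, both 0 with the main settings. For PeMP_TRAP against SN_input between sets, the single call became 0 with RLE factors, unscaled totals, no filter and DESeq2, and 0 to 3 over letters left out.

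Neither the labels nor the check established that letters pair the libraries: same-letter correlations of deviations ran from -0.042 to 0.231, and at most 4 of 11 exceeded 0.1. As a hint from the data, a library correlated best with its own letter in 8 of 11 cases for MG_TRAP and Input, 7 for PeMP_TRAP and MG_TRAP, 4 for PeMP_TRAP and SN_input and 7 for SN_input and Input. With the letter as a replicate block, 5 members in place of 7 passed in PeMP_TRAP against SN_input (C3ar1 and C5ar1 were lost). Of all 15710 genes 606 passed as higher there and 4675 as lower. With the block 1 member passed in MG_TRAP against Input of controls (8 of all 14771 genes) and 3 in SN_input against Input of controls (14 genes). Signs that changed with the block were those of C4b in MG_TRAP against Input (-0.33), C3ar1 in SN_input against Input (0.22), and C1qb (0.31) and C1qc (0.24) in SN_input against Input between sets.

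The other changes of sign concerned low or small values, and the cause was not tested. C4b in MG_TRAP against Input was at -0.36 with RLE factors, -0.13 with unscaled totals, -0.36 by DESeq2, -0.23 in the second set and -0.26 to 0.44 over letters left out. C4b in PeMP_TRAP was at 0.69 against SN_input in the second set and -3.67 to 0.62 over letters left out, and at -0.66 to 3.54 against MG_TRAP. In PeMP_TRAP against MG_TRAP, C3ar1 was at 0.020 in the second set, C5ar1 at 0.12 in the first set and -1.54 to 0.44 over letters left out, and Itgb2 at -0.022 with RLE factors, -0.24 with unscaled totals and -0.021 by DESeq2. C3ar1 in SN_input against Input was at 1.5 in the second set, 0.19 in a fit of these groups alone and -0.65 to 0.31 over letters left out. Over letters left out, Itgb2 in PeMP_TRAP of tamoxifen against control ran from -0.24 to 4.02. In control PeMP_TRAP against SN_input C1qa ran from -0.49 to 1.27, C1qb from -0.34 to 1.78 and C1qc from -0.22 to 1.48. Between sets, PeMP_TRAP against MG_TRAP gave -1.15 to 0.26 for C1qa, -1.42 to 0.23 for C1qb and -1.49 to 0.074 for C1qc, and SN_input against Input gave -1.12 to 1.35 for C1qb and -0.98 to 1.08 for C1qc.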
